A study of Mus musculus with 2 samples.

Results

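Sap130 is a subunit of the Sin3 corepressor, a histone deacetylase complex that is brought to chromatin by DNA-binding factors and is found mostly at promoters. A peak summit is the base at which a peak caller places the maximum of a bound region. Closely paired summits were defined here as summits of the E12.5 mouse heart Sap130 list that had another summit of the list within 500 bp on the same nuclear chromosome. They were chosen by their measured positions alone, and numbered 985 of 14881 nuclear summits, or 6.62% (exact binomial 95% interval 6.22 to 7.03). Neighbours at most 500 bp apart formed 502 pairs, which joined into 483 separate groups: 464 of 2 summits and 19 of 3. The 5 summits of the list on the mitochondrial genome were left out, and no position occurred more than once.

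The list came from 1 chromatin immunoprecipitation (ChIP) library from hearts of C57BL/6 embryos at E12.5, made with a rabbit antibody against Sap130, and was called by the authors against 1 library of input DNA from the same tissue, strain and stage, made without antibody. Whole heart was used, so muscle, endothelial, epicardial and blood cells are not separated, and the labels do not say how many hearts were pooled. There was 1 library of each kind, so no difference below carries a replicate error or a test. The intervals cover counting error only, over summits that are not independent of their neighbours. The score of a summit is the authors' value on a −log10 scale, of a p-value or of a q-value. It was used only within this list, and the depth of the libraries is unknown. Positions and scores come from the same calling that chose the members, so every value below is a description. Of 25 marker genes of the 4 cell classes, 9 held a summit and 1 (Npr3) a paired one. A binding list does not measure the expression of these genes, so the tissue label was not checked by it.

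A mammalian promoter with a CpG island commonly has a nucleosome-depleted stretch at the transcript start, with positioned nucleosomes on either side of it. Many such promoters are divergent, with a second transcript start on the opposite strand a short distance upstream. The sequences of 7 promoters that lay between the 2 summits of a pair are given first, as examples of what separates them. They come from 9 stretches, of which 6 held a match to any of 8 motifs and 3 held none. The lower scores of the 9 pairs ran from 11.9 to 59.2, so not all of them were high. Of those shown, 5 have a match, and the Lrwd1/Alkbh4 and Pop7 stretches have none. They were taken from RefSeq windows of build GRCm38.p6, and stop before the annotated start so that no transcribed base of the named genes is shown. Capitals mark exact matches, on either strand, to CCAAT (the CCAAT box), GGGCGG (the GC box), CCGGAAG (an ETS motif) and GCGCATG (part of the NRF1 motif).
Pigf/Cript, between the starts, chr17:87025402-87025560, plus strand: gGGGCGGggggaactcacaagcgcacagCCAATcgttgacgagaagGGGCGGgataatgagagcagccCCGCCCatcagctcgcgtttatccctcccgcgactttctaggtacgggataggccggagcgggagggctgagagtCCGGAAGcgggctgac
Mrpl32/Psma2, between the starts, chr13:14613038-14613241, plus strand: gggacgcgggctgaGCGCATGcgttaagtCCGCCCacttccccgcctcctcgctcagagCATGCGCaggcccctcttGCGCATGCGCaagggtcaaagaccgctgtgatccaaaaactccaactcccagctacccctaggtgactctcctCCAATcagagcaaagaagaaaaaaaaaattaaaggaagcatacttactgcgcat
Sdhd/Timm8b, between the starts, chr9:50603850-50603900, plus strand: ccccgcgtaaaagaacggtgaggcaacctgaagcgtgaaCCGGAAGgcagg
Klf9, the 120 bases before its start, chr19:23141106-23141225, plus strand: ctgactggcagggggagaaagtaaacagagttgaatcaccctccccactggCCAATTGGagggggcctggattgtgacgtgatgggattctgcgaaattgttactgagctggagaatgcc
Rel, the 120 bases before its start, chr11:23770970-23771089, minus strand: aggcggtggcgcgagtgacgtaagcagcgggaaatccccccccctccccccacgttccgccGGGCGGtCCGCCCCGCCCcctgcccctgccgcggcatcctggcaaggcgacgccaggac
Lrwd1/Alkbh4, between the starts, chr5:136136075-136136144, plus strand: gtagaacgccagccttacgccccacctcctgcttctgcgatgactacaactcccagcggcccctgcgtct
Pop7, the 120 bases before its start, chr5:137502430-137502549, minus strand: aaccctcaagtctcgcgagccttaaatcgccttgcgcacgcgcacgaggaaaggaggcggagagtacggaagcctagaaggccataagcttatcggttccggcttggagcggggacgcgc

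The stretch between the starts of Pigf, of glycosylphosphatidylinositol anchor synthesis, and Cript, which encodes a binding partner of synaptic scaffold proteins, was 159 bases long, with 64.8% G and C and 15 CpG. Its flanking summits scored 59.6 on the Pigf side and 59.2 on the Cript side, the smallest difference among the 26 pairs with both scores at or above the median of the list. The stretch between Sdhd, a subunit of succinate dehydrogenase, and Timm8b, of mitochondrial protein import, was 51 bases long, with scores of 34.5 and 55.2. That between Mrpl32, of the mitochondrial ribosome, and Psma2, of the proteasome, was 204 bases long, with scores of 35.0 and 57.4. At Klf9, a Kruppel-like repressor, the upstream summit scored 34.1 and the downstream one 38.7. At Rel, an NF-kappaB factor, they scored 32.1 and 43.6. The pair of Lrwd1, of the origin recognition complex, and Alkbh4, a demethylase gene, had 52.1 and 18.4. That of Pop7, of the RNase P and MRP complexes, had 37.6 on the left and 46.8 on the right. The Klf9 stretch held 2 CpG and the Rel stretch, of the same length, 15.

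Paired summits lay mostly close to the 500 bp limit. Their spacing ran from 189 to 500 bp with a median of 454 bp and quartiles of 409 and 477 bp, and 397 of 502 pairs (79.1%, Wilson interval 75.3 to 82.4) were over 400 bp apart. Only 2 pairs were at most 200 bp apart and 11 at most 300 bp, against 130 between 400 and 450 bp and 267 between 450 and 500 bp. The count went on rising past the limit, to 324 between 500 and 550 bp, and then fell to 101 between 950 and 1000 bp. The limit thus cuts the rising side of 1 broad distribution, whose fullest 50 bp bin lies just outside it. Across all neighbours on a chromosome, the median spacing was 41919 bp.

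**Figure D1:**
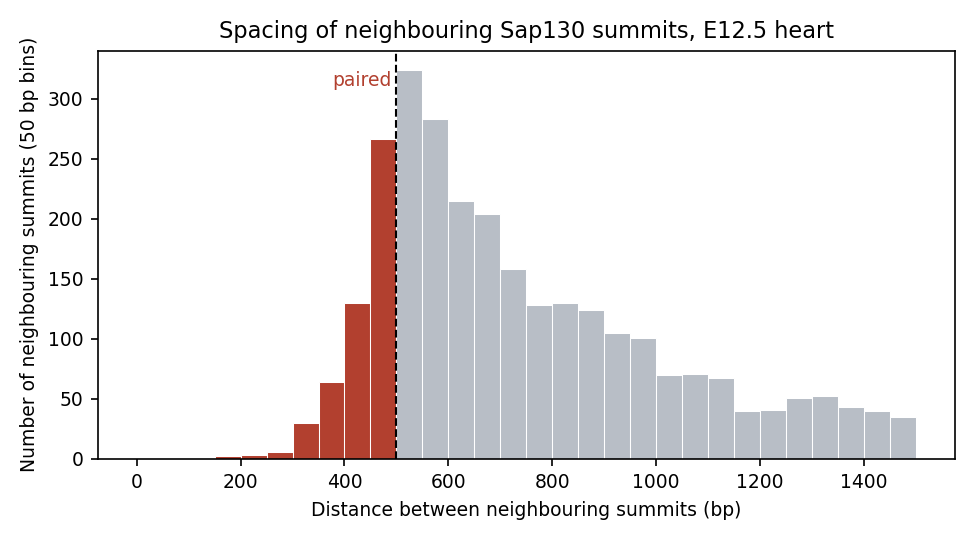
Number of neighbouring Sap130 summits (y) by the distance between them in bp (x, 50 bp bins up to 1500 bp); red bars are the paired summits and the dashed line is the 500 bp limit. The bars rise from 2 at 150 to 200 bp to 267 just inside the limit and 324 just outside it.

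The closest pair, 189 bp apart, lay inside Creb3l2, which encodes a transcription factor of endoplasmic reticulum stress, with scores of 11.1 and 3.75. The next were at Mllt10, which encodes a partner of the methyltransferase Dot1l (193 bp, scores 3.26 and 20.2), and at Igf2, the imprinted growth factor (203 bp, scores 5.79 and 6.49). Pairs at the limit, 500 bp apart, included Rab28, of a small GTPase (scores 81.5 and 9.79), and Rsrp1 (13.6 and 115). Pairs left out by 1 bp included Crk, of an adaptor protein (7.11 and 129), Bnip3l, of mitophagy (60.9 and 23.4), and Bach2, of a transcriptional repressor (9.46 and 63.6). The values on the 2 sides of the limit overlapped.

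The 2 summits of each of the 502 pairs carried consecutive peak numbers, as any neighbours would where peaks are numbered by position. No summit name in the list ends in a letter. MACS2, the peak caller named in the processing notes, adds such a letter when it splits 1 region into several summits. The 2 summits of a pair were therefore listed as separate peaks. The caller's settings for joining nearby enriched stretches into 1 peak are unknown. How far they set the spacing of pairs, and the relation of pairing to score, was not tested.

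In most pairs the lower score was under 50% of the higher one, but in 205 of 502 (40.8%, Wilson interval 36.6 to 45.2) it was not. The higher score of a pair had a median of 31.7 (quartiles 17.3 and 55.8) and the lower one a median of 10.7 (6.40 and 17.0). The difference had a median of 15.1, with quartiles of 5.82 and 36.2, and the lower score was a median of 40.4% of the higher one (quartiles 21.8% and 69.3%). In 83 pairs (16.5%, Wilson interval 13.5 to 20.04) the lower score reached 80% of the higher one, and in 109 (21.7%, 18.3 to 25.5) it stayed under 20%. Only 26 pairs (5.18%) had both scores at or above the median of all nuclear summits, 33.3, while 216 (43.0%) had 1 and 260 (51.8%) had none. The right-hand summit, as the chromosome is numbered, was the higher one in 269 pairs (53.6%, 49.2 to 57.9).

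Neighbours somewhat farther apart looked much the same on the relative scale. For the 1772 neighbours over 500 and up to 1000 bp apart the lower score was a median of 39.0% of the higher one, and for the 1185 from 1000 to 5000 bp it was 37.3%. Their median differences in score were larger, 28.1 and 26.2, and so were the medians of their higher scores, 51.9 and 46.7. Within pairs both scores were greater at wider spacing. At 300 to 350 bp the median higher and lower scores were 13.9 and 6.11 (30 pairs), and at 450 to 500 bp they were 40.01 and 13.0 (267 pairs).

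Pairs in which both summits were strong were led by Wwp2, which encodes a ubiquitin ligase (chromosome 8, 107436334 to 107559290), with 71.4 at 107436284 and 73.8 at 107436747. Rnf40, a ligase that ubiquitinates histone H2B, and its divergent neighbour Ccdc189 followed, with 70.4 on the Ccdc189 side and 89.2 on the Rnf40 side. The pair at Rps2, of the small ribosomal subunit, and Snhg9, which lies within the boundaries of Rps2, had 78.6 and 59.6. The pair within 1000 bp of an end of both Reep3, of the endoplasmic reticulum, and Jmjd1c, of the lysine demethylase family, had 55.3 and 57.5. Pik3ca, the catalytic subunit of PI3 kinase alpha, had 53.8 and 56.5, and Sec24b, of the COPII vesicle coat, 53.5 and 59.2. Camk2g, a calmodulin-dependent kinase, had 45.8 and 50.6. Among the 12 pairs with the highest lower scores, the lower score was from 53.1% of the higher (Fam161b and Coq6, 52.7 and 99.2) to 99.3% (Pigf and Cript).

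The most unequal pairs were taken by difference in score, so each joined a high summit to a lower one. E2f8, which encodes an atypical E2F repressor of cell cycle genes (chromosome 7, 48866429 to 48882073), had 210 at 48881317, 279 bp downstream of the start used, and 8.84 at 48881757, 161 bp upstream of it. That start, at 48881596, is an internal one, and both summits lie within the boundaries of the gene. This difference of 201 was the largest of the 502. Mettl2, a tRNA methyltransferase gene, had 15.3 and 187, and Clta, of clathrin light chain A, 6.42 and 144. Ap1m1, of the AP-1 clathrin adaptor, had 7.13 and 144, Clptm1 145 and 13.0, and Rnf10 128 and 4.02.

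Paired summits had lower scores than the rest of the list. Their median was 17.2 (quartiles 8.85 and 34.6, range 2.16 to 210), against 34.9 (14.6 and 67.0) for the other 13896 summits. The highest scorer of each of the 483 groups had a median of 32.3. When the nuclear summits were ranked by score and cut into 10 bins, the paired share was 12.3% (Wilson interval 10.7 to 14.1) in the lowest bin and 1.61% (1.09 to 2.39) in the highest, where 24 summits were paired. The share was lower in each bin than in the one before it.

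**Figure D2:**
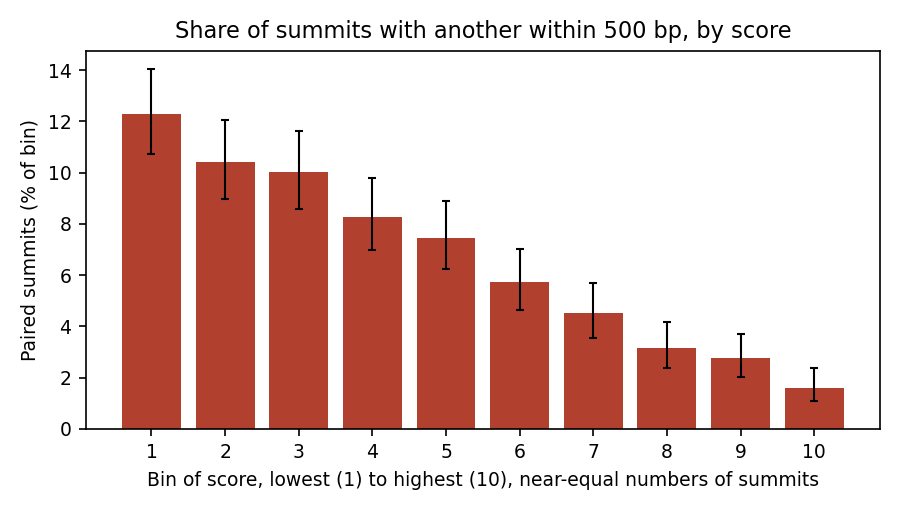
Percent of summits with another within 500 bp (y) in 10 bins of the authors' score, lowest to highest (x); bars are the share in each bin and lines its Wilson 95% interval. The share goes from 12.3% in the lowest bin to 1.61% in the highest.

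A transcript start between the 2 summits was the most frequent arrangement. RefSeq windows gave strand and start for 480 pairs, and the 22 pairs on chromosome 18 were not analysed here for this. At least 1 annotated start lay between the summits in 240 of the 480 (50%, Wilson interval 45.5 to 54.5). In 189 (39.4%) the starts were on 1 strand and in 51 (10.6%) on both. Both summits lay downstream of the nearest start, within 1000 bp of it for the nearer summit, in 108 pairs (22.5%) and upstream in 21 (4.38%). For 111 pairs (23.1%) no start of the table was within 1000 bp, and the table holds 17492 of the protein-coding genes, so some of these have a start that was not used here. Of the 1720 neighbours over 500 and up to 1000 bp apart, 963 (56.0%, 53.6 to 58.3) had a start between them.

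In the 189 pairs around starts of 1 strand, the downstream summit was usually the stronger. It lay a median of 188 bp after the start (quartiles 148 and 230 bp), and the upstream one at −258 bp (quartiles −304 and −218 bp), where negative values lie before the start. The downstream score had a median of 34.2 (quartiles 19.9 and 57.5) and the upstream score 12.48 (7.44 and 20.5). The downstream summit scored higher in 152 pairs (80.4%, Wilson interval 74.2 to 85.5), by a median of 26.8, and the upstream one in 37, by a median of 9.18. Among neighbours over 500 and up to 1000 bp apart with starts of 1 strand between them, the downstream one scored higher in 534 of 703 (76.0%, 72.7 to 79.0). In 63 of the 189 pairs the start used was internal, so that the upstream summit lay within the boundaries of the same gene, and the downstream one was higher in 45 of these (71.4%, 59.3 to 81.1). In the other 126 it was higher in 107 (84.9%, 77.6 to 90.1). Unpaired summits followed the same order, with a median of 45.4 downstream and 25.9 upstream of the nearest start.

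Examples of a stronger downstream summit, beside E2f8, were Coq10b, of ubiquinone function (113 against 20.8), and Srpk2, a kinase of splicing factors (110 against 37.1). Others were Niban2 (81.3 against 20.2) and Ippk, of inositol phosphate synthesis (72.7 against 24.0). The upstream summit was the stronger at G6pc3, a glucose-6-phosphatase gene (16.5 downstream against 93.0 upstream), at Cln3, of a lysosomal membrane protein (20.7 against 71.0), and at Rcor3, of a CoREST corepressor (24.97 against 67.4). At Zbed6 the values were 27.6 and 59.4. At Srpk2 and Cln3 both summits lay inside the gene and over 1000 bp from its ends, so the starts used there are internal ones. The 2 orders thus both occurred with large differences.

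**Figure D3:**
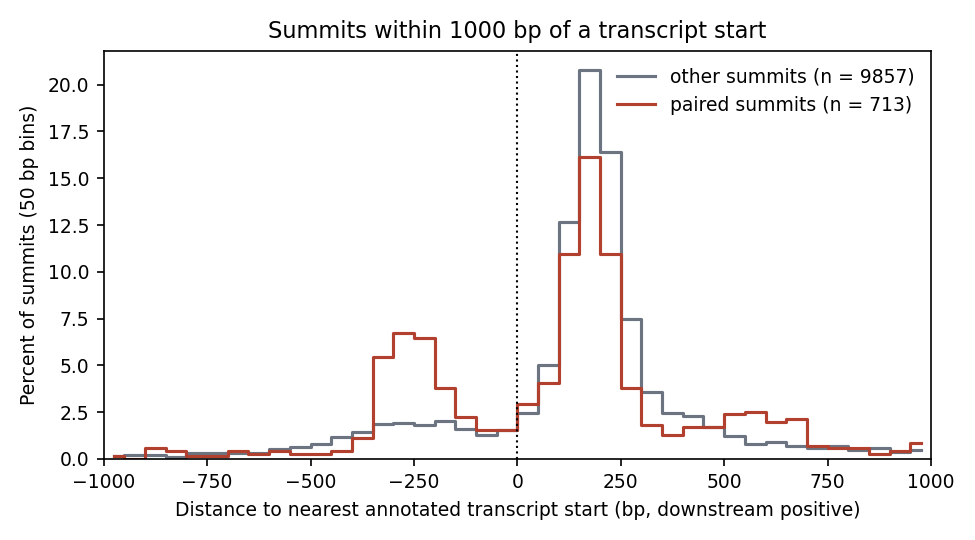
Percent of summits (y, 50 bp bins) by distance to the nearest annotated transcript start in bp (x, downstream positive), for the 713 paired (red) and 9857 other (grey) summits within 1000 bp of a start. Both lines have their highest bin at 150 to 200 bp downstream, and the red line has a second rise between 200 and 350 bp upstream.

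Across all summits near a start, the paired ones were upstream more often than the others. Of 942 paired summits on the chromosomes with starts, 713 (75.7%) were within 1000 bp of one, against 9857 of 13524 others (72.9%). Of those, 231 paired ones (32.4%, Wilson interval 29.1 to 35.9) were upstream of it, against 1821 of the others (18.5%, 17.7 to 19.3). The members were chosen for a second summit within 500 bp, so their positions about a start are not independent of the rule. Among summits downstream of a start, the median distance was 199 bp for both kinds, and the upper quartile 349.75 bp for paired and 271 bp for other summits. The bins from 200 to 350 bp upstream held 46, 48 and 39 paired summits.

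Of the 51 pairs with starts on both strands, 44 were divergent, with the minus-strand start on the left, and in 7 the starts overlapped. By this definition each summit of a divergent pair lies downstream of the start on its own side. The divergent starts were a median of 99.5 bp apart (quartiles 52.5 and 165 bp), and the summits lay a median of 172.5 bp into the gene on their own side (quartiles 126 and 213 bp). The Acot8 and Zswim3 pair had summits 127 and 140 bp past the starts used for these genes, with scores of 57.1 and 51.7. No end of Acot8 was within 1000 bp of either summit, so its start used is an internal one. That of Bcl2l12 and Irf3, an interferon response factor, had summits 159 and 240 bp in, with 56.3 and 45.1. Fam161b and Coq6, of ubiquinone synthesis, had summits 112 and 236 bp in. Rpa1, of the single-strand DNA binding complex, and Smyd4 had 42.0 and 30.2. More unequal were Fam118b and Rpusd4, a pseudouridine synthase gene (92.8 and 17.4), Cops2, of the COP9 signalosome, and Galk2 (65.1 and 12.3), and Cdc26, of the anaphase-promoting complex, and Prpf4, of the spliceosome (13.8 and 58.5).

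Of the 44 divergent pairs, 22 joined 2 protein-coding genes and 21 a protein-coding gene and a long noncoding RNA gene. In 17 of those 21 (81.0%, Wilson interval 60.0 to 92.3) the summit on the protein-coding side scored higher, with a median of 35.3 against 14.6 on the noncoding side. Ezh2, the methyltransferase of Polycomb repressive complex 2 (chromosome 6, 47530274 to 47595270), had 54.7 on its own side and 21.8 on that of F830010H11Rik. Mok, a kinase gene, had 137 against 15.3 on the side of 4921507G05Rik, and Map2k3, of a MAP kinase kinase, had 82.8 against 32.0 on the side of Map2k3os. The noncoding side was the stronger at Snhg9, a host of small nucleolar RNAs, with 78.6 against 59.6 for Rps2, whose start used is internal. It was also stronger at Katnal1, of a microtubule-severing protein, with 21.7 against 67.5 on the side of Gm36446. At Mmaa it was 16.3 against 29.4 on the side of Gm4890, and at Mocs2 17.5 against 19.4 on that of Gm34790. The noncoding side was higher in these 4 of the 21 and in no other.

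**Figure D4:**
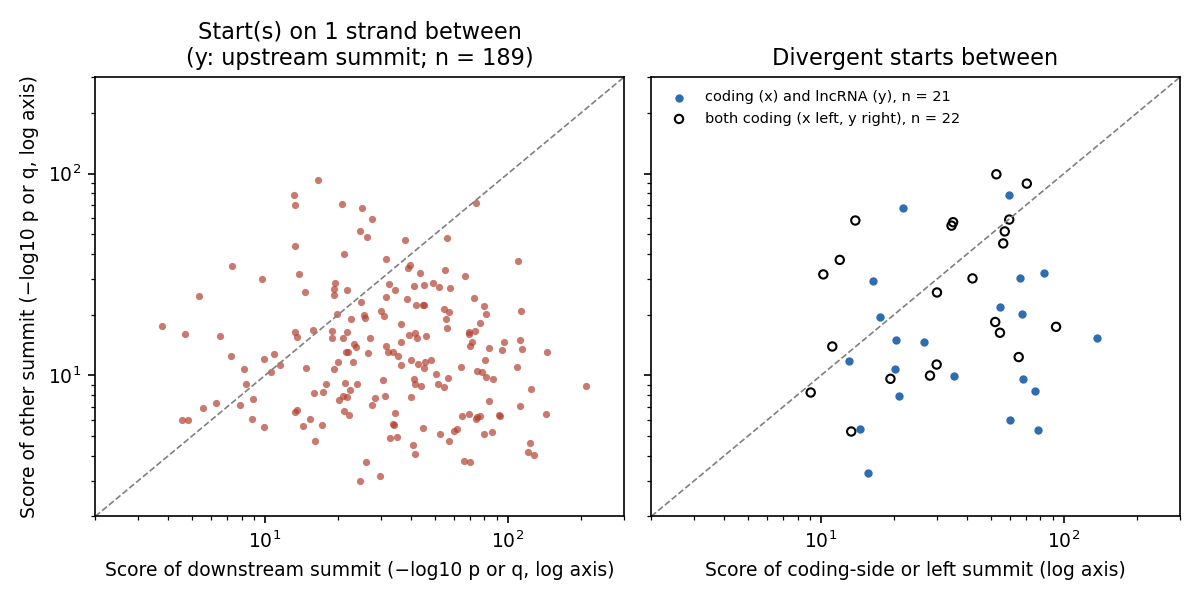
Left: the authors' score of the upstream summit (y, log axis) against that of the downstream summit (x, log axis) for the 189 pairs around starts of 1 strand. Right: the same on log axes for divergent pairs, with the noncoding side against the coding side for 21 pairs (blue) and the right against the left summit for 22 pairs of coding genes (open); on the dashed line both scores are equal, and 152 of the 189 points on the left lie below it.

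Pairs with both summits downstream of the nearest start formed another set. In these 108 pairs the nearer summit was a median of 181.5 bp and the farther one 614.5 bp past that start. Starts of all gene types were used, and it was not checked that both summits lie inside the gene. Their median scores were 18.7 and 12.501, and the nearer summit was the higher in 72 (66.7%, Wilson interval 57.3 to 74.8). Nrbp1, of a pseudokinase, had 120 at 197 bp and 38.1 at 668 bp, and Cks1b, of a cyclin-dependent kinase subunit, 88.1 at 29 bp and 31.9 at 507 bp. The farther summit was the stronger at Creb1, of the cyclic AMP response factor (30.7 at 323 bp and 74.0 at 803 bp), and at Cd63, of a tetraspanin (21.1 at 283 bp and 73.8 at 744 bp). At Nrbp1 and Cd63 both summits lay inside the gene and over 1000 bp from its ends, so the starts used there are internal ones. The starts used are those of the RefSeq table, and a gene may have others in between.

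By gene boundaries alone, paired and other summits fell into the same classes. A gene end is here a position within 1000 bp of the first or last base of a protein-coding gene. Of the 985 paired summits, 713 (72.4%, Wilson interval 69.5 to 75.1) were at one, against 73.6% of the others (72.8 to 74.3). A further 223 (22.6%) lay elsewhere inside protein-coding genes, against 21.9%, 26 (2.64%) at or in genes of other types, against 2.86%, and 23 (2.34%) were intergenic, against 1.70%. Summits in reach of the ends of 2 or more protein-coding genes made up 15.5% (13.4 to 17.9) of the paired and 11.8% (11.3 to 12.3) of the others. Starts of 2 genes on opposite strands were within 1000 bp of 195 of 942 paired summits (20.7%, 18.2 to 23.4) and of 1876 of 13524 others (13.9%, 13.3 to 14.5).

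Both summits were at an end of the same gene in 351 of 502 pairs (69.9%, Wilson interval 65.8 to 73.8), 1 of them in 23, and neither in 128 (25.5%). The median difference in score was 19.4 in the first kind and 9.79 in the last. Of the 128, 105 had both summits deeper inside protein-coding genes. Bcor, a corepressor of Polycomb repressive complex 1 (chromosome X, 12036737 to 12160516), had 31.3 and 33.6 inside the gene, and Usp54 55.5 and 25.8. In 23 pairs no protein-coding gene was at either summit. The highest lower score among those was at Snhg5, another host of small nucleolar RNAs, with 56.2 at 175 bp into the gene and 47.9 at 324 bp upstream. Crnde, a long noncoding RNA gene, had 69.2 and 16.4. In 10 pairs both summits were intergenic, and the one with the highest lower score had 23.7 at 85485892 and 23.2 at 85486334 of chromosome 12.

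Groups of 3 summits spanned 712 to 967 bp, and none of the 19 had all 3 scores at or above the median of the list. The middle summit was the highest in 6 and the lowest in 6. At Nfic, of a nuclear factor I protein, the scores were 43.5, 19.4 and 30.9 from left to right. At Vezf1, a zinc finger factor of vessel development, they were 13.2, 22.0 and 79.8, and at Ash2l, a subunit of histone H3 lysine 4 methyltransferases, 6.03, 44.0 and 15.4. A group next to a glutamine tRNA gene, n-TQttg6, had 6.91, 5.53 and 155. In 3 groups every score was under 10: at Hic1, of a transcriptional repressor (7.34, 7.57 and 7.33), at Pcdh10, of a protocadherin (7.03, 6.38 and 7.33), and at the host gene of miR-124, Mir124a-1hg (5.59, 5.13 and 5.79).

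A paired summit was at an end of, or inside, 559 of 21779 protein-coding genes (2.57%), and any summit at 11972 (55.0%), so that 4.67% of the genes with a summit had a paired one. Both summits of a pair were in reach of 550 genes, and 5 genes (Bcor, Gm46608, Mllt10, Qk and Rnf165) had 2 separate groups. The gene lists held 0 to 3 genes with a paired summit each, too few to set against these shares. Of 27 Sin3 complex genes, 26 had a summit and 1 a paired one: Rbbp4, of a histone chaperone, with 24.8 and 5.35. The start used between those 2 summits was that of its neighbour Zbtb8os. Of 41 other corepressor and chromatin genes, all had a summit and 3 a paired one. These were Rcor3 and Ezh2, given above, and Hdac3, the deacetylase of the NCoR complex, with 36.6 and 23.1.

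Of 40 heart transcription factor genes, 37 had a summit and 2 a paired one. Hand2, a factor of right ventricle formation (chromosome 8, 57320983 to 57324517), had 10.7 at 57321089 and 28.4 at 57321568. Isl1, a factor of second heart field progenitors (chromosome 13, 116298270 to 116309688), had 4.68 at 116309576 and 16.1 at 116310033. Of 48 developmental signalling genes, 44 had a summit and 2 a paired one: Gsk3b, a kinase of the Wnt pathway, with 5.29 and 39.1, and Dll4, a Notch ligand, with 4.80 and 5.99, where the start used was that of Gm14207. Npr3, the natriuretic peptide clearance receptor of endocardium, was the 1 of 26 endothelial and epicardial markers, 13 of which had a summit, with 7.25 and 6.40 inside the gene. No paired summit was found at the 40 cell cycle genes or the 30 ribosome and tRNA genes listed, each of which had a summit. None was found either at the 26 contractile genes, 16 of them with a summit, or the 19 blood markers, 2 of them with one. The cell cycle and ribosome lists are partial. Genes of these kinds outside them had paired summits, among them Rps2, Rpl24, Rpl28, Rpl31, Cks1b and Cks2.

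The paired share differed somewhat between chromosomes. It ran from 3.24% on chromosome 19 (16 of 494 summits, Wilson interval 2.00 to 5.20) to 10.5% on chromosome 13 (64 of 609, 8.32 to 13.2) and 10.4% on chromosome 18 (43 of 415, 7.78 to 13.7). On X it was 5.24% (22 of 420).

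The promoters between paired summits were rich in G, C and CpG, as were those with only unpaired summits nearby. In 300 base windows, from 250 bases before to 50 after a start, the 308 windows whose start lay between a pair had a median of 65.0% G and C and 26 CpG. The 10539 windows with only unpaired summits within 500 bp, which can have 1 on either side, had 63.7% and 24 CpG, and all 32851 windows 52.7% and 7 CpG. A GC box was in 80.5% of the windows between pairs, 72.5% of those near unpaired summits and 35.7% of all windows. A CCAAT box was in 41.9%, 36.9% and 37.4%, the ETS motif in 19.2%, 20.5% and 8.86%, and the NRF1 letters in 8.44%, 8.36% and 3.91%. An E-box (CACGTG), the site of Myc and Max factors, was in 8.12% of windows between pairs, against 11.2% and 7.15%, and TATAAA in 3.90%, against 5.08% and 13.6%. AAGATGG, part of the YY1 motif, was in 5.52%, 7.41% and 6.34%, and the cyclic AMP response element TGACGTCA in 2.27%, 3.67% and 1.79%. These letters were searched on both strands, some overlap one another, and a match is not a binding site. Among protein-coding windows alone, a GC box was in 80.7% of those between pairs, 72.8% near unpaired summits and 46.2% of all. The medians of these 3 sets were 64.3%, 63.3% and 56.3% G and C, and 25, 24 and 13 CpG.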

How the data were processed

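Per the submitters' processing notes, the authors used Bowtie 1.1.2 and MACS2 2.1.0.20140616 with build GRCm38 (mm10). Their parameters, duplicate handling and threshold were named in no source used here. Each of the 14886 deposited entries is 1 base, taken as a summit. Its score was taken, from the caller's format, as a −log10 value that the authors deposited, and whether it comes from a p-value or from a q-value is not stated. It grows with depth as well as with enrichment, and gives no fold. The input library entered only through the calling.

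Genes came from RefSeq GRCm38.p6 (49997 genes, of which 394 on no named nuclear chromosome, or starting in the first 3000000 bases of a chromosome other than Y, were left out). Starts came from 32851 RefSeq windows of 27025 genes. Where several starts lay between 2 summits, the one nearest their middle was used for 1 strand, and the innermost on each strand for both. Positions are 1-based.

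Named pairs were those with the highest lower score, the closest and widest, the most and least unequal, those away from gene ends, groups of 3, and members of 9 gene lists. Other examples were chosen after their values were seen. Some pairs that this rule names are not reported here. The members and lists were chosen with earlier results of these data known. No test was run, because there is 1 library. The pairing step was tested on simulated data. Alternatives were spacings of 250 and 1000 bp, scores at or above the median, groups of 2 only, gene ends within 500 and 2500 bp, and genes of any type. Start classes, sequence windows and motifs were added after seeing the data. Python 3.11.15, numpy 2.4.6, pandas 2.3.3, scipy 1.17.1 and matplotlib 3.10.9 were used.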

Additional observations from a re-analysis of the deposited data

How the results depend on the processing

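A value counted as moved when it left the 95% interval of the reported one (for medians, by order statistics), and the count of paired summits when it changed by over 1.5 times. Limits: 1 list with no replicate and unknown depth, and a spacing limit that cuts a continuous distribution. With a spacing of 250 bp there were 10 paired summits, with a median spacing of 203 bp, a median score difference of 2.44, a lower score at 68.4% of the higher, a median score of 6.14, 10% at a gene end, 0% of pairs at an end of the same gene and 0% of groups with 3 or more. With 1000 bp there were 4289, with a spacing of 607 bp, a difference of 25.1, a score of 23.7, 65.5% of pairs at an end of the same gene and 11.3% of groups with 3 or more. The relative score (39.2%) and the share at gene ends (72.1%) stayed within the interval there. With scores at or above the median only, 52 summits in 26 pairs were left, with a spacing of 475.5 bp, a difference of 7.71, a lower score at 83.9% of the higher, a median score of 52.2, 80.8% at a gene end, 76.9% of pairs at an end of the same gene and 0% of groups with 3 or more. The share at a gene end was 57.4% within 500 bp, 83.6% within 2500 bp and 78.7% with genes of any type, and that of pairs at an end of the same gene 45.0%, 82.7% and 76.5%. Groups of exactly 2 summits moved none of the 4 values computed for them. No paired analysis was possible because there was 1 library of each kind.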
